A study of Homo sapiens with 9 samples.

Results

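Apolipoproteins are the proteins that coat plasma lipoproteins, and the 10 genes described here encode 7 of them (APOA1, APOA2, APOM, APOB, APOC1, APOE and APOH), the lipid transfer protein that loads APOB (MTTP) and a pair of membrane proteins that pass cholesterol between cells and high density lipoprotein, HDL (ABCA1 and SCARB1). They were chosen by symbol, with earlier results of these data known. All 26 probe sets annotated to these symbols alone were used, out of 41091 probe sets with 1 gene symbol, and for values per gene (10 genes out of 19775) the brightest probe set by mean signal stood for the gene. The cells were HepG2, an established human hepatoma line, so that all arrays come from 1 tumour-derived line and not from primary hepatocytes. They were given the PPARα agonist GW7647 at 100 nM for 24 h (3 arrays), the same dose for 6 h (3 arrays) or the DMSO vehicle (3 arrays), all in phenol red-free medium with serum. A single vehicle group serves both times. How long it was kept in DMSO is not stated in the sources used here, so hours in culture and hours of agonist cannot be told apart, and in bulk RNA neither can fewer cells of a type and less RNA per cell. The study set expression beside a survey of promoters occupied by PPARα, and its arrays ask which genes move early and which late under the agonist.

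The liver assembles very low density lipoprotein around APOB, a process that needs the microsomal triglyceride transfer protein MTTP in the endoplasmic reticulum. It also secretes APOA1 and APOA2, which acquire phospholipid and cholesterol through ABCA1 to form HDL, while SCARB1 takes cholesteryl ester back from HDL. PPARα is a nuclear receptor for fatty acids and the target of fibrate drugs. In human liver, fibrates are known for raising APOA1, APOA2 and APOA5 and for lowering APOC3.

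Values are log2 signals of a 3′ expression array, so a difference of 1 is a doubling, and a level of one probe set cannot be set against that of another. Each change carries its SE from limma and, where given, a 95% confidence interval. They were called at an adjusted p under 0.05, with Benjamini-Hochberg adjustment over all 19775 genes or, for probe sets, over all 41091. Nothing in the labels says that the 3 arrays of a group came from separate cultures, so the p-values speak only for the scatter of these samples, which may be technical. All 9 measured hepatocyte markers, among them albumin (ALB) at 14.75, 14.77 and 14.79 log2 units at 24 h, 6 h and in vehicle, lay above the median gene signal. Of the 9, the transthyretin gene TTR (-0.55 ± 0.07) and the fibrinogen chain FGB (-0.67 ± 0.06) fell at 24 h and all 9 missed the threshold at 6 h. Without probe sets ending in _x_at or _s_at, ALB was lower at 6 h than in vehicle (-0.47, limma adjusted p = 0.00785). Of 22 measured markers of other liver cells, which are endothelium, macrophages, lymphocytes, stellate cells and bile duct, 7 lay above the median gene signal. These were the bile duct markers KRT7, KRT19, SOX9 and EPCAM, the endothelial marker PECAM1, the collagen gene COL1A1 and smooth muscle actin ACTA2. The last of these was the 1 marker of that list that passed at 24 h (0.27 ± 0.05), and all 22 missed the threshold at 6 h. The mean of the other-cell markers ran from 6.39 to 6.47 at 24 h, 6.46 to 6.48 at 6 h and 6.41 to 6.44 in vehicle.

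The expression change among these genes was a fall of APOM at 24 h. APOM, a lipocalin carried mainly on HDL where it binds sphingosine-1-phosphate, was 1.51-fold (95% confidence interval 1.38 to 1.65) lower after 24 h of GW7647 than in vehicle. The other 9 genes did not pass at 24 h, with log2 changes between -0.26 and 0.10, and none of the 10 passed in limma at 6 h (0 also at an unadjusted p under 0.05), with log2 changes between -0.20 and 0.03. Over all genes 8.17% passed at 24 h against vehicle and 3.54% at 6 h against vehicle. At an unadjusted p under 0.05 it was 3227 of 19775 genes at 6 h. ABCA1 had the lowest change of these 9 at 24 h, and it passed once vehicle replicate 2 was left out.

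Promoter windows are shown for APOM, the gene that fell, for ABCA1, which passed once 1 vehicle array was left out, and for MTTP, whose product loads APOB. They run from 250 bases before to 50 bases after a transcript start, from RefSeq in GRCh38.p14. The search, over both strands, was for a direct repeat, AGGTCA, 1 base of any kind and AGGTCA again, the form that PPARα with RXRα is known to bind. It also covered the same repeat with 4 bases between, known from liver X receptors, the hexamer AGGTCA, which lies within both repeats, the sterol regulatory element known from SREBP, and the TATA box TATAAA. Capitals mark matches, with up to 3 mismatches allowed in either repeat and none in the other motifs, and distances are those of the first printed base of a match. The APOM and MTTP starts shown lie inside the annotated gene spans.
APOM (chr6:31655644-31655943, GRCh38.p14, plus strand): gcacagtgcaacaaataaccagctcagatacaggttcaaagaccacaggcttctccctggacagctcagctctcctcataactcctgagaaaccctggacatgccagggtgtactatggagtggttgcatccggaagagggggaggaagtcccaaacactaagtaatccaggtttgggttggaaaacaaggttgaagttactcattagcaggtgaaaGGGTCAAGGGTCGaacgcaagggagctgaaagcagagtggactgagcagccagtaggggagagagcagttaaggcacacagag
ABCA1 (chr9:104928106-104928405, GRCh38.p14, minus strand): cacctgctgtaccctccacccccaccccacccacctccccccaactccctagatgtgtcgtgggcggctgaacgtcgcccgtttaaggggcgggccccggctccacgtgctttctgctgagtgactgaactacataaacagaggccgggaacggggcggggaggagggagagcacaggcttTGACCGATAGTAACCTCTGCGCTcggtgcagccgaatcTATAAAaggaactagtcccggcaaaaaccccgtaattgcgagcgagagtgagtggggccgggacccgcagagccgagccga
MTTP (chr4:99574574-99574873, GRCh38.p14, plus strand, the downstream one of its 2 windows): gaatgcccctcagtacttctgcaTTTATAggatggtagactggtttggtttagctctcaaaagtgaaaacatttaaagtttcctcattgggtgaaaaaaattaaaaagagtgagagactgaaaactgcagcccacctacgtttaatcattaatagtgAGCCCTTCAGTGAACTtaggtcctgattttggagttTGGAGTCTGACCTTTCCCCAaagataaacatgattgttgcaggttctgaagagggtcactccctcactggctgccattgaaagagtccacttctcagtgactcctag

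In the APOM window the capitals mark GGGTCAAGGGTCG, 33 bases before the start, which differs from the 1-base repeat at 3 positions. In ABCA1 they mark a 4-base repeat on the opposite strand with 2 mismatches, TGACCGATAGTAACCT, 69 bases before the start, a 1-base repeat with 3 mismatches that overlaps it, TAACCTCTGCGCT, and a TATA box 31 bases before the start. In MTTP they mark a pair of overlapping 1-base repeats with 3 mismatches each on the opposite strand (TGGAGTCTGACCT and TGACCTTTCCCCA), the exact hexamer within both, a 4-base repeat with 3 mismatches (AGCCCTTCAGTGAACT) and a TATA box 227 bases before the start on the opposite strand. With 3 mismatches allowed, 20.9% of all 35116 promoter windows held the 1-base repeat and 18.6% held the 4-base repeat, and with 2 mismatches 2.34% held the 4-base repeat. The hexamer occurred in 13.8% of windows, TATAAA in 11.5% and the sterol element in 0.154%. Of the 10 windows that belong to 7 of the 10 genes, 3 held the 1-base repeat, 3 the 4-base repeat, 1 the hexamer, 2 the TATA box and 0 the sterol element. The 4-base repeat lay in windows of ABCA1, MTTP and APOC1. APOA1, APOB and SCARB1 had no window, so their promoters were not searched. The 3 windows with the 1-base repeat are the 3 printed, so they do not stand for all 10 windows. The upstream MTTP window and the windows of APOA2, APOE and APOH held no match to any of the motifs. All matches are descriptions of letters in a window, and binding was not measured by these arrays.

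Among the HDL proteins, APOM (chromosome 6, 31652404 to 31658210, GRCh38.p14) had signals of 10.64, 10.68 and 10.52 log2 units on the 24 h arrays. The 6 h arrays had 11.23, 11.23 and 11.19, and the vehicle arrays had 11.15, 11.23 and 11.23. All 24 h arrays lay below every other array, and the 6 h and vehicle arrays overlapped. The log2 change at 24 h against vehicle was -0.59 ± 0.06 (limma adjusted p = 1.69e-04), with means of 10.61 ± 0.09 at 24 h against 11.21 ± 0.04 in vehicle (SD, n = 3 arrays per group). At 24 h against 6 h it was -0.60 ± 0.06 (limma adjusted p = 1.04e-04), and at 6 h against vehicle 0.01 ± 0.06 (limma adjusted p = 0.952, 95% confidence interval -0.12 to 0.14).

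The second APOM probe set, 205682_x_at, separated the groups in the same way. It read 10.56, 10.64 and 10.41 at 24 h, 11.08, 11.04 and 11.07 at 6 h and 11.04, 11.11 and 11.10 in vehicle. Its log2 change was -0.55 ± 0.07 at 24 h against vehicle (limma adjusted p = 9.94e-04) and -0.52 ± 0.07 at 24 h against 6 h (limma adjusted p = 7.22e-04). Both APOM probe sets carry endings, _s_at and _x_at, that mark probes which may be shared with other transcripts, so no APOM value free of such probes can be given. APOM shares 258 bases of its locus with BAG6, a chaperone gene, which read 11.86 ± 0.04 at 24 h against 11.76 ± 0.08 in vehicle (log2 change 0.10 ± 0.06, limma adjusted p = 0.405). Against 6 h, BAG6 was higher at 24 h by 0.31 ± 0.06 (limma adjusted p = 0.00649). The mean of the 9 hepatocyte markers ran from 13.25 to 13.28 at 24 h, 13.37 to 13.38 at 6 h and 13.40 to 13.48 in vehicle. The markers did not move together. At 24 h 5 lay wholly below vehicle and 2 wholly above, where 8.95% and 14.0% of all genes did. TTR and FGB were the 2 that passed as lower, and TF and SERPINA1 had higher means (14.34 against 14.25 and 14.35 against 14.24 in vehicle). The part of these markers in the fall of APOM was not tested.

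The fall of APOM was 1 of 10 genes called at 24 h against vehicle, where 8.17% of all genes were called and 2.80% as lower, and 1 of 10 at 24 h against 6 h, where 13.8% were and 4.57% as lower. Among called falls, 34 of 553 genes at 24 h against vehicle changed by as much as APOM or more, APOM included, and 63 of 903 at 24 h against 6 h. Leaving out any 1 array kept APOM past the threshold, with a log2 change between -0.62 and -0.54 and an adjusted p of at most 0.00123 at 24 h against vehicle. Over the 9 arrays the genes whose signal followed APOM most closely were UBR7, AGR2 and ACTA1, each at Pearson r = 0.989. These correlations are descriptions over 9 arrays that share 3 groups, so they largely repeat the difference between groups.

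**Figure D1:**
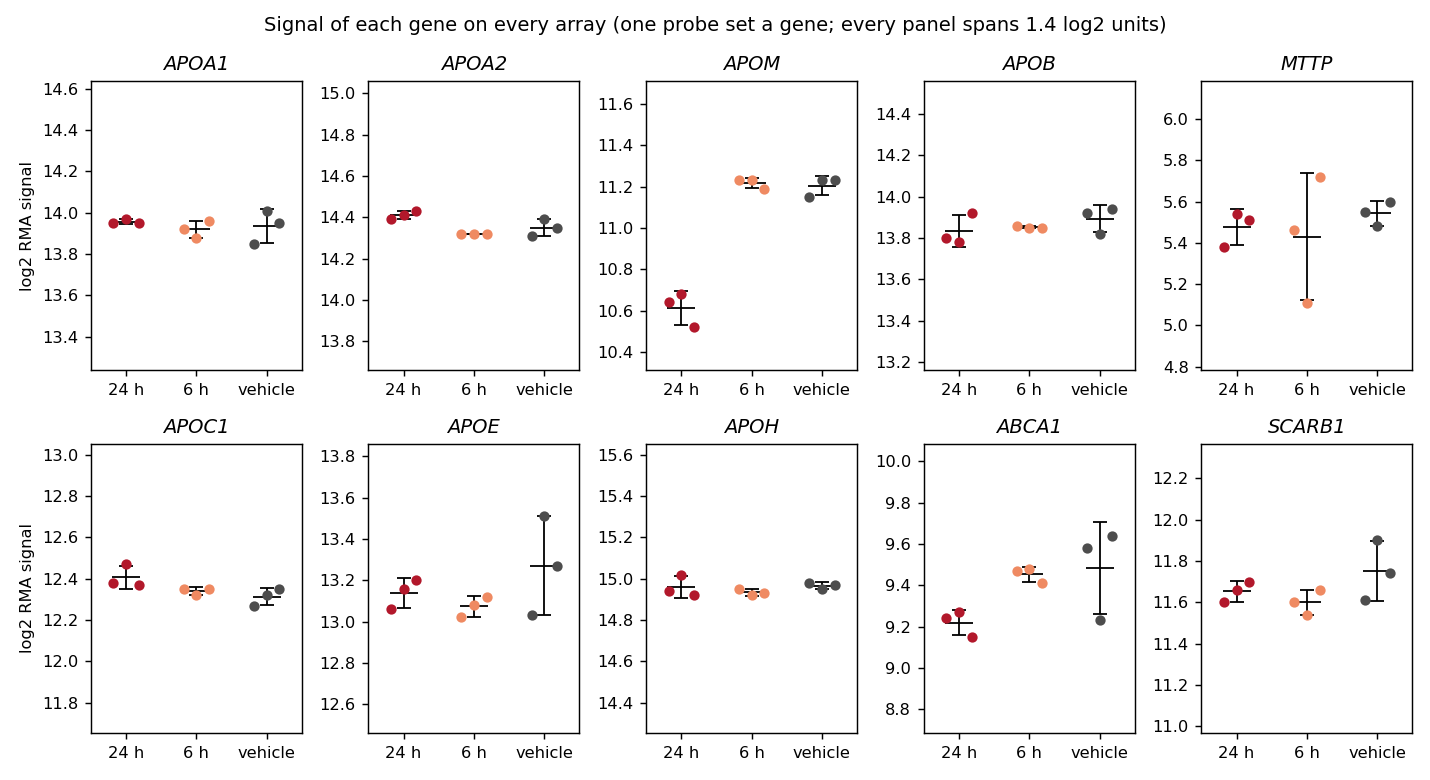
Signal of each of the 10 genes on every array, in log2 RMA units, for GW7647 24 h, GW7647 6 h and vehicle; points are arrays, and the bar and whiskers are the mean ± SD of 3 arrays. Every panel spans the same range of log2 units, though whether all probe sets respond alike to RNA was not tested. APOM sits at 10.52 to 10.68 at 24 h, below all other arrays, and the vehicle arrays of APOE, ABCA1 and SCARB1 are spread widely.

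APOA1 and APOA2, the main structural proteins of HDL and known PPARα targets in human liver, did not pass at either time. APOA1 (chromosome 11, 116835751 to 116837622) read 13.95, 13.97 and 13.95 at 24 h, 13.92, 13.88 and 13.96 at 6 h and 13.85, 14.01 and 13.95 in vehicle. The groups overlapped, with a log2 change of 0.02 ± 0.06 at 24 h (95% confidence interval -0.11 to 0.15) and -0.02 ± 0.06 at 6 h (-0.14 to 0.11). The intervals correspond to 0.930-fold to 1.11-fold at 24 h and 0.905-fold to 1.08-fold at 6 h. A second bright APOA1 probe set, 217073_x_at, had a log2 change of 0.02 ± 0.06 at 24 h, and 231694_at, at a mean of 6.83 and without probes marked as shared, one of 0.06 ± 0.11.

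APOA2 (chromosome 1, 161222292 to 161223628) read 14.39, 14.41 and 14.43 at 24 h, 14.32 on each of the 6 h arrays and 14.31, 14.39 and 14.35 in vehicle. Its 24 h arrays all lay above the 6 h arrays, by 0.09 ± 0.05 log2 units (limma adjusted p = 0.320), and overlapped vehicle. Against vehicle the log2 change was 0.06 ± 0.05 at 24 h and -0.03 ± 0.05 at 6 h, and the interval of the signal change at 24 h was 0.963-fold to 1.12-fold. The other APOA2 probe set gave 0.00 ± 0.05 at 24 h.

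The leading probe sets of APOA1, APOA2, APOB and APOH lay between 13.78 and 15.02 on all 9 arrays, at the top of the range, where that of APOH had the highest mean of all probe sets. Whether such signals still respond in proportion to RNA was not tested.

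APOB, the large protein of very low and low density lipoprotein, and MTTP, which transfers lipid to it, are the assembly genes. APOB (chromosome 2, 21001429 to 21044073) read 13.80, 13.78 and 13.92 at 24 h, 13.86, 13.85 and 13.85 at 6 h and 13.92, 13.82 and 13.94 in vehicle, and all groups overlapped. The log2 change was -0.06 ± 0.06 at 24 h and -0.04 ± 0.06 at 6 h (limma adjusted p = 0.634 and 0.811). The second probe set of APOB, 223579_s_at, read 12.53, 12.39 and 12.59 at 24 h, 12.56, 12.56 and 12.61 at 6 h and 12.64, 12.88 and 12.70 in vehicle. Here the arrays of both treated groups lay below all vehicle arrays, as did 8.91% of all probe sets at 24 h and 9.47% at 6 h. Vehicle replicate 2 was the highest array. The log2 change was -0.24 ± 0.08 at 24 h (limma adjusted p = 0.112) and -0.16 ± 0.08 at 6 h (limma adjusted p = 0.375). Neither passed, and the 2 probe sets of APOB thus differed in how far their groups lay apart.

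MTTP (chromosome 4, 99564130 to 99623997) was measured by 1 probe set, whose mean of 5.48 lay below the array medians of 5.61 to 5.68. It read 5.38, 5.54 and 5.51 at 24 h, 5.46, 5.11 and 5.72 at 6 h and 5.55, 5.48 and 5.60 in vehicle. The 6 h arrays spanned those of both other groups. The log2 change was -0.06 ± 0.12 at 24 h and -0.11 ± 0.12 at 6 h, with intervals of -0.33 to 0.20 and -0.38 to 0.16. They were the widest intervals of the 10 genes in both comparisons.

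APOC1 and APOE are exchangeable apolipoproteins encoded next to each other on chromosome 19 (APOE 44905796 to 44909393, APOC1 44914325 to 44919346). APOE is the ligand by which remnant lipoproteins bind their receptors on liver cells, and APOC1 holds back that uptake and inhibits the cholesteryl ester transfer protein. APOC1 read 12.38, 12.47 and 12.37 at 24 h, 12.35, 12.32 and 12.35 at 6 h and 12.27, 12.32 and 12.35 in vehicle. Its 24 h arrays all lay above those of vehicle, as did 14.0% of all genes, with a log2 change of 0.10 ± 0.05 that did not pass (limma adjusted p = 0.328). The second APOC1 probe set overlapped between groups, with a log2 change of 0.02 ± 0.05 at 24 h.

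APOE read 13.06, 13.16 and 13.20 at 24 h, 13.02, 13.08 and 13.12 at 6 h and 13.03, 13.51 and 13.27 in vehicle. The vehicle arrays were spread more widely than all treated arrays together and overlapped both groups, and vehicle replicate 2 was the highest of all 9. The log2 change was -0.13 ± 0.10 at 24 h and -0.20 ± 0.10 at 6 h (limma adjusted p = 0.512 and 0.367). All 3 APOE probe sets had vehicle replicate 2 as the highest array, and their log2 changes were -0.13, -0.11 and -0.08 at 24 h and -0.20, -0.11 and -0.09 at 6 h.

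APOH, also called beta-2-glycoprotein I, is a plasma protein that binds anionic phospholipid. APOH (chromosome 17, 66212033 to 66229415) read 14.94, 15.02 and 14.92 at 24 h, 14.95, 14.92 and 14.93 at 6 h and 14.98, 14.95 and 14.97 in vehicle. The log2 change was -0.01 ± 0.05 at 24 h and -0.03 ± 0.05 at 6 h. Its dimmer probe set, 231359_at, read 8.97, 8.63 and 8.78 at 24 h, 8.96, 8.85 and 8.81 at 6 h and 8.67, 8.64 and 8.79 in vehicle. There the 6 h arrays all lay above vehicle, by 0.17 ± 0.09 (limma adjusted p = 0.413), and the 24 h arrays overlapped it.

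**Figure D2:**
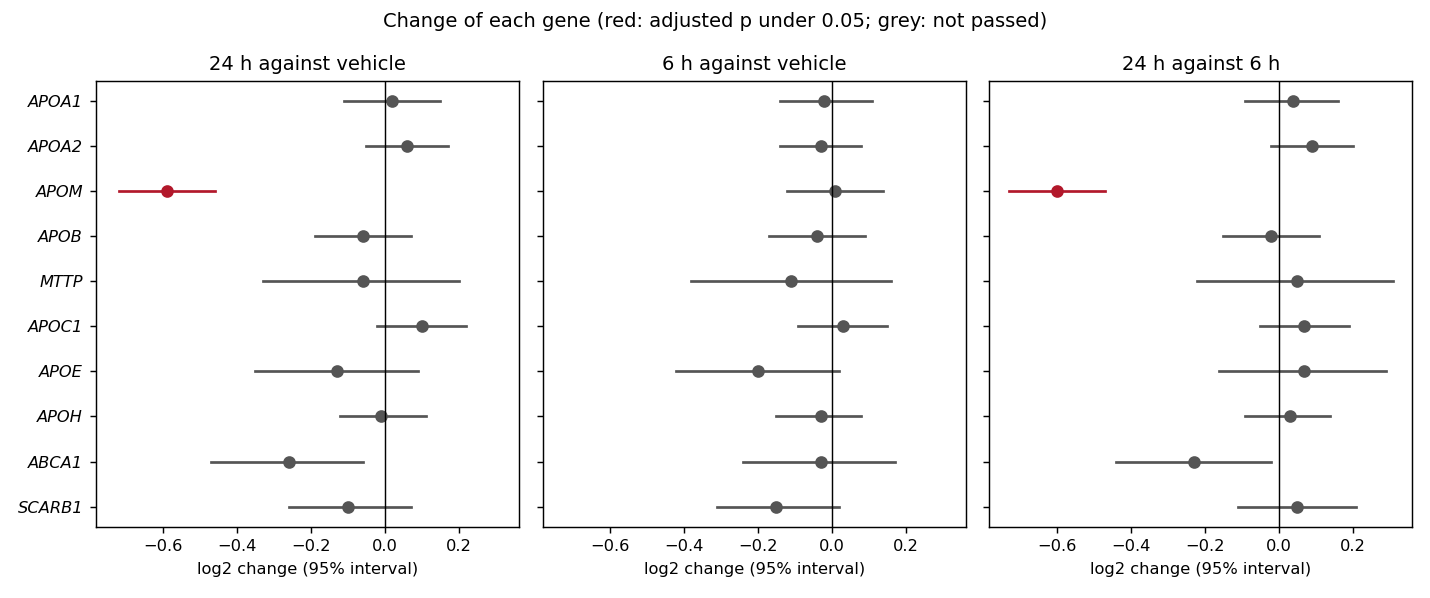
Log2 change of each of the 10 genes with its 95% confidence interval, for both times set against vehicle and for 24 h against 6 h; red marks an adjusted p under 0.05 and grey the rest. APOM stands at -0.59 at 24 h against vehicle and -0.60 at 24 h against 6 h, and the intervals of the other genes include 0 except that of ABCA1 in both comparisons with 24 h.

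ABCA1, the transporter that moves phospholipid and cholesterol to APOA1, and SCARB1, the HDL receptor SR-BI, work at the cell surface. ABCA1 (chromosome 9, 104781006 to 104928155) read 9.24, 9.27 and 9.15 at 24 h, 9.47, 9.48 and 9.41 at 6 h and 9.58, 9.23 and 9.64 in vehicle. All 24 h arrays lay below the 6 h arrays, as did 13.8% of all genes, whereas vehicle replicate 2 lay among the 24 h arrays. The log2 change was -0.26 ± 0.09 at 24 h against vehicle (limma adjusted p = 0.123, 95% confidence interval -0.47 to -0.06) and -0.23 ± 0.09 at 24 h against 6 h (limma adjusted p = 0.144). At 6 h against vehicle it was -0.03 ± 0.09. Without vehicle replicate 2 the change at 24 h against vehicle was -0.39 (limma adjusted p = 0.00498) and that at 24 h against 6 h was -0.23 (limma adjusted p = 0.0166), both past the threshold. With any other array left out ABCA1 did not pass in either comparison. Over all alternatives its adjusted p at 24 h against vehicle ran from 0.00498 to 0.504, the last of these on 203505_at.

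The other 3 ABCA1 probe sets had smaller log2 changes at 24 h and did not pass. On 203505_at, which has no probes marked as shared, the 24 h arrays read 8.47, 8.56 and 8.40, the 6 h arrays 8.56, 8.59 and 8.56 and the vehicle arrays 8.69, 8.43 and 8.63, with a log2 change of -0.11 ± 0.08 at 24 h against vehicle. Vehicle replicate 2 was again the lowest of its group. The remaining ABCA1 probe sets, 216066_at and 1570279_at, had means of 4.46 and 4.17, below the array medians, and changes of -0.08 ± 0.06 and 0.02 ± 0.08.

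SCARB1 (chromosome 12, 124776856 to 124863864) read 11.60, 11.66 and 11.70 at 24 h, 11.60, 11.54 and 11.66 at 6 h and 11.61, 11.90 and 11.74 in vehicle. The groups overlapped, and vehicle replicate 2 was the highest array, as for APOE. The log2 change was -0.10 ± 0.07 at 24 h and -0.15 ± 0.07 at 6 h (limma adjusted p = 0.519 and 0.363). Among its 5 probe sets the changes at 24 h ran from -0.13 ± 0.10 on 215835_at to 0.13 ± 0.07 on 215834_x_at, so the sign differed between them and none passed.

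Fitted one by one, 2 of the 26 probe sets passed at 24 h against vehicle, both for APOM and both lower, where 5.66% of all probe sets passed, 3.37% as higher and 2.30% as lower. The same count of 2, again those of APOM, passed at 24 h against 6 h, where 9.71% did, 6.20% as higher and 3.51% as lower. At 6 h against vehicle 0 of 26 probe sets and 0 of 10 genes passed by limma, where 2.03% of all probe sets (0.905% as higher, 1.13% as lower) and 3.54% of all genes did. At an unadjusted p under 0.05 the counts at 6 h were also 0 of 26 and 0 of 10. At 24 h against vehicle they were 4 of 26 and 2 of 10. Over all probe sets and all genes, 5927 of 41091 and 3227 of 19775 were under 0.05 at 6 h. At 24 h against vehicle 7661 of 41091 and 4198 of 19775 were. Counted by whether the arrays of the groups overlapped, 1 gene lay wholly above vehicle at 24 h (APOC1) and 1 wholly below (APOM), where 14.0% and 8.95% of all genes did and 23.0% in either direction. At 6 h 0 of 10 genes lay apart from vehicle, where 20.8% of all genes did, 10.5% above and 10.3% below. At 24 h against 6 h, APOA2 and APOC1 lay above and APOM and ABCA1 below, where 19.2% and 13.8% of all genes did and 33.0% in all. Of the 26 probe sets, 1 lay above and 3 below vehicle at 24 h, where 11.4% and 8.91% of all probe sets did and 20.3% in all. At 6 h 1 lay above and 2 below, where 9.20% and 9.47% did and 18.7% in all, and at 24 h against 6 h 4 lay above and 3 below, where 16.2% and 13.1% did and 29.2% in all.

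The median log2 change of the 10 genes was -0.06 at 24 h and -0.03 at 6 h, and that of all genes was 0.003 and 0.004.

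Vehicle replicate 2 was the highest of the 9 arrays for 12 of the 26 probe sets and the lowest for 0, against 17.6% and 11.6% of all probe sets. The cause of its position was not tested. It enters every comparison with vehicle, and the changes of APOE, SCARB1 and ABCA1 with and without it are therefore given. Without it, the log2 change at 24 h was -0.01 for APOE and -0.02 for SCARB1, and at 6 h -0.08 and -0.07, none past the threshold.

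**Figure D3:**
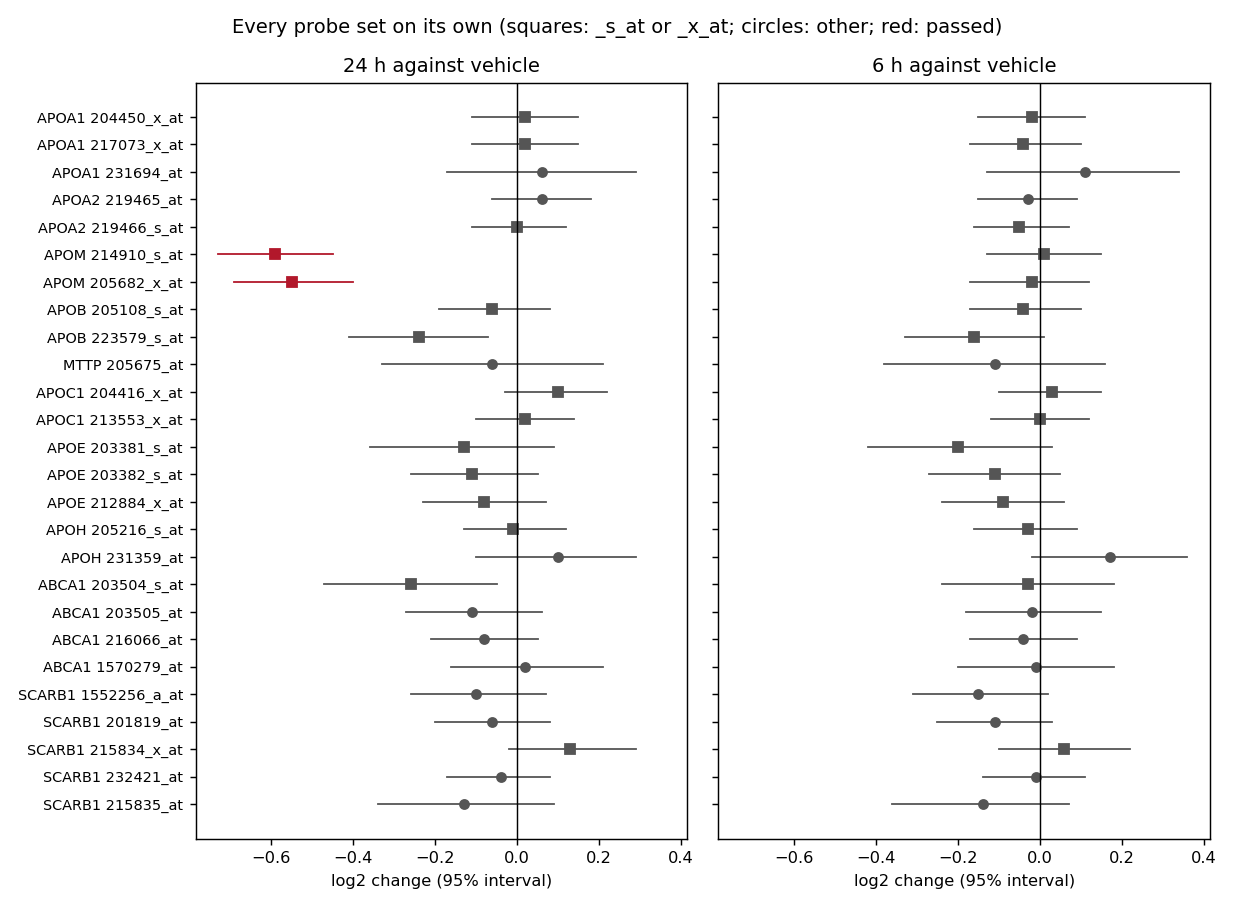
Log2 change of each of the 26 probe sets with its 95% confidence interval at 24 h and at 6 h, each set against vehicle; squares are probe sets ending in _s_at or _x_at, circles all others, and red marks an adjusted p under 0.05 over 41091 probe sets. Both APOM probe sets lie at -0.59 and -0.55 at 24 h and near 0 at 6 h, while the probe sets of SCARB1 lie on both sides of 0.

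Outside the 10 genes, 6 lists of other lipoprotein genes were chosen with earlier results of these data known. Shares over all genes therefore stand beside them as description and not as a test. The lists held 119 genes, 101 of them measured by a probe set with 1 symbol. Of these 101, 16 rose and 4 fell at 24 h against vehicle (81 not past the threshold), 4 rose and 7 fell at 6 h (90 not), and 28 rose and 5 fell at 24 h against 6 h (68 not). Over all genes, 5.38% rose and 2.80% fell at 24 h, 1.64% rose and 1.91% fell at 6 h, and 9.23% rose and 4.57% fell at 24 h against 6 h. The count at 24 h against vehicle was between 13 (without vehicle replicate 1) and 21 with 1 array left out, and that at 24 h against 6 h between 21 (without 6 h replicate 1 or 2) and 38. That at 6 h was between 5 (without 6 h replicate 2) and 11, and 6 without 6 h replicate 1.

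Of 14 other apolipoproteins measured, 2 rose and 1 fell at 24 h, with 11 not past the threshold and a median log2 change of 0.05, and all 14 missed it at 6 h. APOA5, which promotes triglyceride clearance, read 9.02, 9.20 and 9.06 at 24 h, 8.52, 8.36 and 8.65 at 6 h and 8.61, 8.78 and 8.74 in vehicle. Its 24 h arrays lay above all others, with a log2 change of 0.39 ± 0.08 against vehicle (limma adjusted p = 0.0157) and 0.59 ± 0.08 against 6 h (limma adjusted p = 9.16e-04). The change against vehicle did not pass without vehicle replicate 1 or 24 h replicate 2 (adjusted p up to 0.0661). APOC3, which restrains lipoprotein lipase, read 11.01, 11.10 and 11.12 at 24 h, 11.23, 11.23 and 11.30 at 6 h and 11.18, 11.28 and 11.28 in vehicle. Its 24 h arrays lay below all others, as did 8.95% of all genes against vehicle, and its log2 change of -0.17 ± 0.06 did not pass (limma adjusted p = 0.102). APOC3 passed as lower in 3 of 19 alternatives at 24 h against vehicle (limma adjusted p from 0.0275 to 0.839 over the 19). At 24 h against 6 h it passed in 4 of 19 (0.017 to 0.847, against 0.0701 with the standard settings). Over the 19 its log2 change ran from -0.20 to -0.03 against vehicle and from -0.22 to 0.03 against 6 h. With 1 array left out it stayed between -0.20 and -0.14 in both comparisons. APOA5, APOA4, APOC3 and APOA1 lie side by side on chromosome 11 between 116789367 and 116837622, and the log2 changes of APOA4 and APOA1 at 24 h were -0.03 ± 0.06 and 0.02 ± 0.06, neither past the threshold. The apolipoprotein L gene APOL2 rose by 0.63 ± 0.10 and clusterin, CLU, fell (-0.34 ± 0.07).

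In plasma remodelling, 1 of 13 measured genes rose at 24 h and 0 fell, with a median of 0.07. It was ANGPTL8, an inhibitor of lipoprotein lipase, at 10.82 ± 0.04 at 24 h against 9.60 ± 0.13 in vehicle (2.33-fold, limma adjusted p = 7.58e-04). At 6 h the 1 gene that rose was endothelial lipase LIPG (0.59 ± 0.09, limma adjusted p = 0.00498). Its means of 5.45 at 6 h and 4.86 in vehicle both lay below the array medians of 5.61 to 5.68. Of 12 lipoprotein receptor genes, 2 rose and 0 fell at 24 h, with a median of -0.005. VLDLR, a receptor for triglyceride-rich lipoproteins, rose by 1.00 ± 0.09 (limma adjusted p = 6.87e-05) and the sorting receptor SORL1 by 0.51 ± 0.07. Of 24 partners of APOB assembly and secretion, 1 rose and 1 fell at 24 h, with a median of 0.04. VMP1, a membrane protein of the endoplasmic reticulum, rose by 0.79 ± 0.14 (limma adjusted p = 0.00659), and SEL1L (-0.23 ± 0.06, limma adjusted p = 0.0498) was lost in 8 of 9 fits without 1 array. At 6 h VMP1 (0.59 ± 0.14) and MIA3 (-0.24 ± 0.06) passed with all arrays, and MIA3 in 0 and VMP1 in 2 of the 9 fits without 1 array.

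Sterol efflux, storage and sensing genes numbered 21, of which 5 rose and 2 fell at 24 h (14 not past the threshold), with a median of 0.07. The liver X receptor gene NR1H3, which encodes a known activator of ABCA1, read 8.52, 8.47 and 8.60 at 24 h, 8.12, 8.07 and 8.20 at 6 h and 7.94, 8.40 and 8.08 in vehicle. Its 24 h arrays lay above all others (log2 change 0.39 ± 0.10 against vehicle, limma adjusted p = 0.0375), but it passed in only 1 of 9 fits without 1 array, the one without vehicle replicate 2. LPCAT3, which remodels phospholipids, rose by 0.36 ± 0.07, the sterol transporter subunit ABCG5 rose by 0.33 ± 0.06, and the lysosomal lipase LIPA fell (-0.34 ± 0.06). ABCG1, which passes cholesterol to HDL, had a log2 change of -0.07 ± 0.10 (limma adjusted p = 0.763). At 6 h STARD4, a carrier of cholesterol within the cell, rose by 0.39 ± 0.05. At 24 h STARD4 fell against vehicle (limma adjusted p = 0.0133), with a log2 change between -0.25 and -0.23 with 1 array left out. Its log2 change at 24 h against 6 h was -0.63 ± 0.05 (limma adjusted p = 2.61e-05). INSIG2 (-0.38 ± 0.09) passed at 6 h with all arrays and in 3 of 9 fits without 1 array.

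Among 17 measured regulators of apolipoprotein transcription, 5 rose and 0 fell at 24 h, with a median of 0.13, whereas at 6 h 1 rose and 5 fell, with a median of -0.24. At 24 h the orphan receptor NR0B2 rose by 0.90 ± 0.06 (limma adjusted p = 5.26e-06), the coactivator PPARGC1A by 0.56 ± 0.09 and FOXO1 by 0.54 ± 0.07. CREB3L3 (0.59 ± 0.13, limma adjusted p = 0.0226) passed in 5 of 9 fits without 1 array. Its vehicle mean of 5.52 lay below the array medians, and its 24 h mean was 6.11. PPARA and RXRA, the receptor and its partner, read 8.43 ± 0.04 and 9.63 ± 0.06 at 24 h, 7.88 ± 0.03 and 9.05 ± 0.09 at 6 h and 8.49 ± 0.10 and 9.69 ± 0.10 in vehicle. At 6 h PPARA (-0.61 ± 0.06), RXRA (-0.64 ± 0.07) and PPARGC1A (-0.64 ± 0.09) fell, with limma adjusted p-values of 3.31e-04, 7.36e-04 and 0.00351. FOXA2 also fell at 6 h (-0.34 ± 0.06, limma adjusted p = 0.0132) and passed in 8 of 9 fits without 1 array. At 24 h FOXA2 rose against vehicle (limma adjusted p = 0.029), but passed in only 4 of 9 such fits. Its log2 change at 24 h against 6 h was 0.59 ± 0.06 (limma adjusted p = 1.56e-04). FOXO1 (0.35 ± 0.07) passed at 6 h with all arrays and in 4 of 9 fits without 1 array. At 24 h PPARA and RXRA did not pass.

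**Figure D4:**
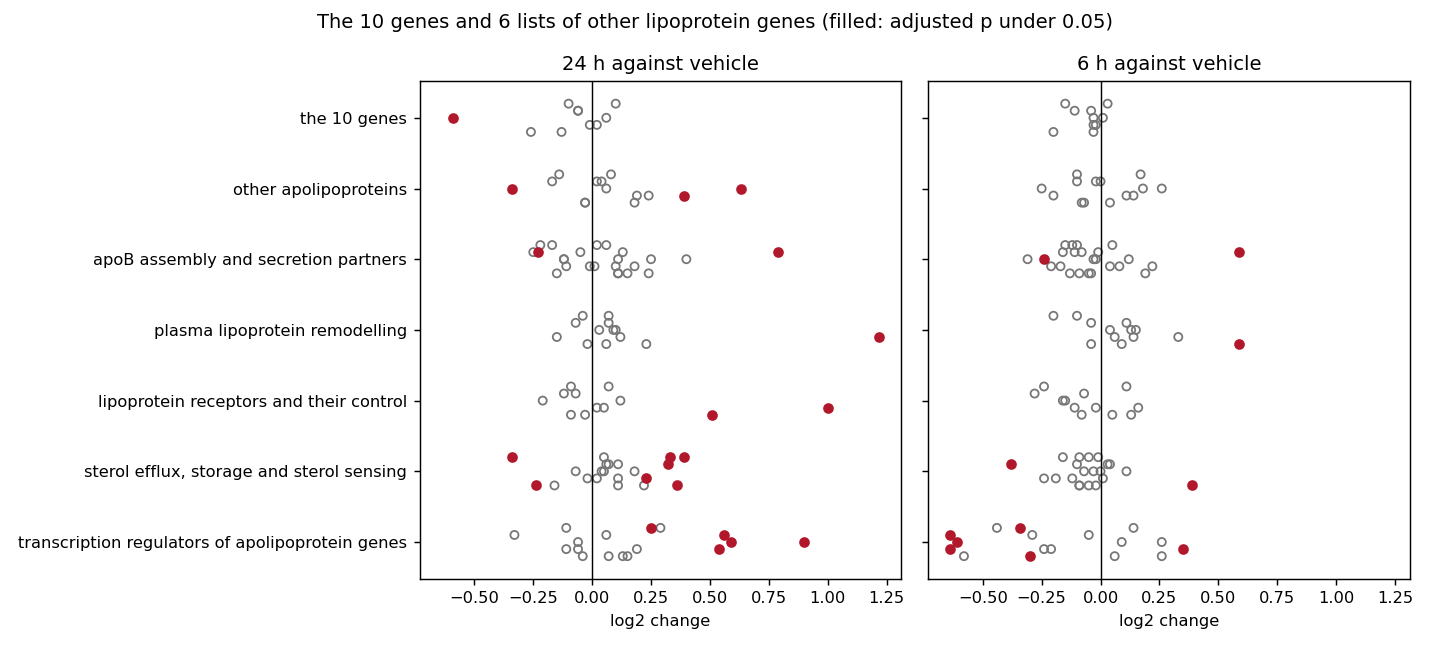
Log2 change of the 10 genes and of the genes of 6 other lists at 24 h and at 6 h, each set against vehicle; each circle is 1 gene, filled where the adjusted p was under 0.05, and heights within a row only separate the circles. APOM is the filled circle among the 10 genes at 24 h, and ANGPTL8 and VLDLR reach 1.22 and 1.00.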

How the data were processed

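The deposited values were log2 probe set signals, 1 column for each of 9 arrays, made by the authors with RMA, which the submitters' processing notes name without a version. They were used as deposited, from 2.66 upwards, with array medians of 5.61 to 5.68. Of 54675 probe sets, 62 were controls, 41097 had 1 gene symbol, 1801 had several and 11721 had none. The 41091 non-control probe sets with 1 symbol were used, and each gene was represented by the one with the highest mean over the 9 arrays (19775 genes). Arrays carry no depth, so the number of arrays limits the precision.

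Group means of all 9 arrays were fitted with limma 3.58.1 in R 4.3.3, moderated with eBayes, tested two-sided and adjusted by Benjamini-Hochberg over all genes or all probe sets. With 3 arrays in each group, the smallest p of an exact permutation test is 0.10. The model was tested on simulated arrays with known changes and independent noise, which cannot speak for outlying arrays or arrays that are not independent. The 10 genes, the 6 lists and the markers were chosen with earlier results of these data known. The names used were the 10 genes, at most 4 of the called genes per list and comparison, taken by size of change, and 9 genes whatever their test, of which 7 were measured. The most similar genes were the 3 with the highest Pearson r to a called gene. The fit was repeated with replicate number as a block, on the compared groups alone, with eBayes's trend and robust options, on the brighter 50% of genes, on each gene's probe sets averaged, without endings _x_at and _s_at, after quantile normalization or centring on the median, with weights per array, at an adjusted p under 0.01 and with each array left out in turn.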

Additional observations from a re-analysis of the deposited data

Results flagged for a closer look

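APOM differed between the times of exposure. Its change after 24 h of GW7647 and its change after 6 h rest on the same vehicle arrays, so the test of their difference is 24 h against 6 h, which gave a log2 change of -0.60 ± 0.06 (limma adjusted p = 1.04e-04), with all 3 arrays at 24 h below all 3 at 6 h. The other 9 genes did not pass that test.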

How the results depend on the processing

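APOM passed as lower at 24 h against vehicle and at 24 h against 6 h under every alternative that could measure it, with log2 changes of -0.62 to -0.54 and -0.64 to -0.55. Without probe sets ending in _x_at or _s_at, 0 of the genes left passed in either comparison, because no APOM probe set was left and 4 of the 10 genes had none. The number of the 10 genes that passed was 2 in place of 1 at 24 h against vehicle with array weights and at 24 h against 6 h on the compared groups alone or with array weights, ABCA1 being the second in each, and it was also 2 at 24 h against 6 h with an intensity trend and robust prior, where APOA2 was the second (0.09, adjusted p = 0.0398). With 1 array left out it was 1 to 2 in both comparisons and 0 at 6 h, and ABCA1 was the second without vehicle replicate 2. The 26 probe sets gave 2 to 3 calls at 24 h in both comparisons with 1 array left out. Among the values of the 10 genes under the alternatives, 549 kept their side of the threshold, 6 newly passed and 0 were lost or reversed, and 28 that passed neither way changed sign. For the 101 other lipoprotein genes, the 11 calls at 6 h became 6 with the replicate number as a block, 7 with only the compared groups, 20 with the trend and robust prior, 18 of genes above the median signal, 6 without shared probes and 5 at an adjusted p under 0.01, where the 20 at 24 h became 10 and the 33 at 24 h against 6 h became 21. With 1 array left out these counts were 5 to 11, 13 to 21 and 21 to 38. Without shared probes MIA3 at 6 h turned to 0.01 (adjusted p = 0.972) and ALB at 24 h against 6 h to 0.31 (adjusted p = 0.0257), beside an ALB change of -0.47 at 6 h against vehicle (adjusted p = 0.00785) on the same probe set. APOC3 at 24 h newly passed against vehicle and against 6 h with the trend and robust prior, among genes above the median signal and after quantile normalization, and against 6 h also with array weights. The causes were not tested. Deviations of same-numbered arrays correlated at -0.201 to 0.086 over 9 pairs, and those of differently numbered arrays at -0.242 to 0.245 over 18. These values show no pairing by number, but with 3 arrays per group they cannot exclude one. The block changed no call of the 10 genes.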
